A study of Mus musculus with 4 samples.

Results

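The unfolded protein response genes described here are 10 of the 27998 genes listed in each of 4 single-cell RNA libraries of mouse liver leukocytes, taken by their symbols: Hspa5, Hsp90b1, Calr, Pdia4, Sdf2l1, Manf, Herpud1, Xbp1, Atf4 and Ddit3. Their unique molecular identifiers (UMIs, 1 for each captured RNA molecule) were summed per library and cell class. All 10 were detected in each of the 12 cell classes that were tested. They were chosen by name, with earlier results of these data known.

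The exercise group (2 libraries) came from wild-type C57BL/6 mice run on a moving treadmill at 12.5 m/min, and the sedentary group (2 libraries) from wild-type C57BL/6 mice placed on a treadmill that stood still, both for 60 min a day on 5 days a week over 4 weeks. All libraries hold liver cells selected for CD45, the pan-leukocyte surface protein, and the study's title concerns exercise ahead of surgery and the training of Kupffer cells, the macrophages that reside in liver sinusoids. Alanine aminotransferase in serum, a marker of liver injury, was 26 and 59 U/L for the exercise samples and 33 and 56 U/L for the sedentary samples. Whether each replicate was a separate animal is not stated in the labels. Each p between the groups therefore measures the spread between these samples, which may be technical. A p between cell classes measures the scatter that remains with library as a term in the fit.

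The endoplasmic reticulum (ER) folds proteins bound for the cell surface, for secretion and for lysosomes. When unfolded protein builds up there, 3 membrane sensors respond: IRE1 splices Xbp1 mRNA, PERK slows translation and favours synthesis of ATF4, and ATF6 is cut to release a transcription factor. Together these factors raise the genes for ER chaperones and for the machinery that removes misfolded protein, and after long stress also Ddit3 (CHOP), which is linked to cell death. Secretory and antigen-presenting leukocytes use much of the same machinery in the unstressed state. A UMI count gives the amount of an mRNA, and it separates neither the spliced form of Xbp1 nor the amount of ATF4 protein.

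Several members carry known binding motifs for these factors before their RefSeq start sites, and the 4 promoters that hold a match are shown. Sequences are RefSeq's, on GRCm38.p6, and cover 250 bases before the RefSeq start, 5′ to 3′ on the strand of the gene. A RefSeq entry was matched for 9 of the 10 members; Manf had none in the table. Capitals mark the motif letters on either strand.
Hspa5, chr2:34771840-34772089, plus strand: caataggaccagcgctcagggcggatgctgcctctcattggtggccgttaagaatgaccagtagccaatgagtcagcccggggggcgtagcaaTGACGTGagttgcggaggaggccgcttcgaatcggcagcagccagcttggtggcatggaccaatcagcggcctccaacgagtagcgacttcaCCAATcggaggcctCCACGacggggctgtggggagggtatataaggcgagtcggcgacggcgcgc
Hsp90b1, chr10:86705445-86705694, minus strand: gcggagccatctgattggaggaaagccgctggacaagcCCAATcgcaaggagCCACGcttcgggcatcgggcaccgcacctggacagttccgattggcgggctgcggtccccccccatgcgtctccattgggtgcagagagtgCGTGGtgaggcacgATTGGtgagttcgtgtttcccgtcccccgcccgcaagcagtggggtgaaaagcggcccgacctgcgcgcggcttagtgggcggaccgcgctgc
Calr, chr8:84846932-84847181, minus strand: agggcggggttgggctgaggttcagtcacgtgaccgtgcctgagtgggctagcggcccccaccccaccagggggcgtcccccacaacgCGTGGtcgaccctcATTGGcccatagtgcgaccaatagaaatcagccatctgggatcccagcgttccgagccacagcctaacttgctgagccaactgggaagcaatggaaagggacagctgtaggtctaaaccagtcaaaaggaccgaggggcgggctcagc
Herpud1, chr8:94386179-94386428, plus strand: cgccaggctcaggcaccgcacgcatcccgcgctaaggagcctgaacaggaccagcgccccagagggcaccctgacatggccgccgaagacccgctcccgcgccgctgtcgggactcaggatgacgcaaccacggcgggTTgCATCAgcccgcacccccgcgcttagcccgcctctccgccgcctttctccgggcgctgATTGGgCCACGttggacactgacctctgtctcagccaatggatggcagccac
The ER stress element (ERSE, searched on both strands as CCAAT and CCACG with any 9 bases between them), at which ATF6 with NF-Y acts, was matched 65 to 47 bases before the start of Hspa5, 162 to 144 bases before that of Calr and at 2 places before Hsp90b1, 212 to 194 and 107 to 89 bases upstream. It was matched in 0.113% of 32851 RefSeq promoter windows of the same length. Hspa5 also held the XBP1 and ATF6 motif TGACGTG, found in 1.65% of those windows. Herpud1 held ERSE-II (ATTGG and CCACG with any 1 base between them, sharing CCACG with the ERSE, 0.03% of windows) 52 to 42 bases before its start and, on the other strand, the ATF4 composite motif TGATGNAA (3.452% of windows). No match to these 4 motifs was found in the windows of Xbp1, Atf4, Ddit3, Sdf2l1 and Pdia4. A match is a run of letters and not a measured binding site. GENCODE starts Hspa5, Hsp90b1, Ddit3 and Calr upstream of the RefSeq start. The GENCODE start of Hspa5, at 34771970, lies before its ERSE, so that match is inside the GENCODE gene.

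The libraries held 10050976 and 14849778 UMIs in the exercise group and 10662091 and 11826183 in the sedentary group, and 14560 of 15383 barcodes were kept. Clustering without the members, without other ER and stress genes and without hepatocyte and erythroid genes gave 22 clusters, named by markers into 18 classes, of which 12 had at least 20 cells in every library. Ptprc, which encodes CD45, averaged 412 CPM (counts of a gene per 1000000 UMIs of its class and library) in Kupffer-like cells and 397 CPM in T-like cells, and 65.0 CPM in liver sinusoidal endothelial (LSEC)-like cells. No cluster matched the plasma cell markers. Transcripts of hepatocytes were far higher in the sedentary libraries: in Kupffer-like cells all 10 markers were detected, summed to 123 to 171 CPM in the exercise and 762 to 1548 CPM in the sedentary libraries, and 9 of them passed the test as lower. Pairs of libraries shared 11 to 31 cell barcodes.

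Over the cell classes the members did not move as 1 group. The large chaperones Hspa5, Hsp90b1 and Calr were high in Kupffer-like cells and lower in lymphoid cells. Plasmacytoid dendritic (pDC)-like cells stood apart from the other tested classes by Xbp1 and Manf. They also had the highest tested mean of Herpud1, and type 1 conventional dendritic (cDC1)-like cells that of Sdf2l1. In both of these the libraries overlapped those of the next class. Each class was set against Kupffer-like cells with library as a term in edgeR's quasi-likelihood test over 8044 genes, with an adjusted p under 0.05 as the threshold. Of 110 differences, 21 passed as higher and 56 as lower. By class, 10.7% to 40% of all genes passed as higher and 14.2% to 38.4% as lower. Of the 77 differences, 58 passed in each of 8 alternative settings, while the sign of all 77 held in each. The 11 differences of a member share its Kupffer-like values. The chart of class differences shows all of them.

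**Figure D1:**
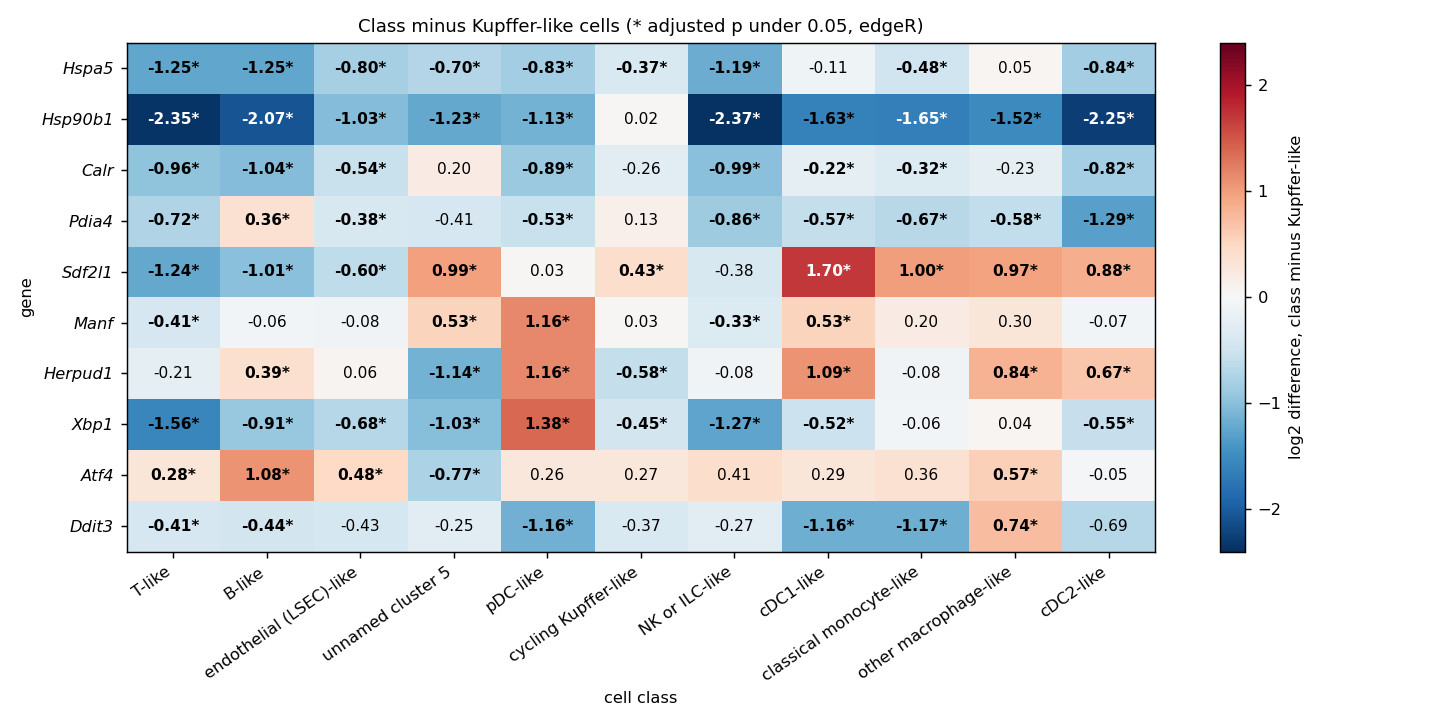
Log2 difference of each member (rows) between a class (columns) and Kupffer-like cells. Blue is lower and red higher than in Kupffer-like cells, and bold values with an asterisk have an adjusted p under 0.05. Hsp90b1 is lower in 10 of 11 classes, down to -2.37, while the pDC-like column is raised for Xbp1 (1.38), Manf (1.16) and Herpud1 (1.16).

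Counts of members lay on both sides of the background of all genes. In T-like cells 1 member was higher and 8 lower, beside 40% and 38.4% of all genes tested, and the members' median difference was -0.84 against 0.02 for all genes. In B-like cells 3 were higher and 6 lower (37.2% and 35.1% of all genes). In natural killer (NK) or innate lymphoid cell (ILC)-like cells 0 were higher and 6 lower, beside 28.7% and 31.8%. In LSEC-like cells 1 was higher and 6 lower, beside 29.8% and 30.6%. Type 2 conventional dendritic (cDC2)-like cells had 2 higher and 5 lower (26.1% and 26.9%), and cDC1-like cells had 3 higher and 5 lower (34.7% and 34.3%). The counts in pDC-like cells were 3 and 5, beside 32.8% and 33.1%. Classical monocyte-like cells had 1 higher and 5 lower, beside 21.7% and 23.9%. In other macrophage-like cells, which lack the Kupffer markers, 4 were higher and 2 lower, beside 17.9% and 18.8%, and the members' median was 0.17 against -0.01. Cycling Kupffer-like cells had 1 higher and 3 lower, beside 10.7% and 14.2%. In unnamed cluster 5, which carried hepatocyte and Kupffer transcripts, 2 were higher and 5 lower, beside 17.5% and 24.2%.

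Among the chaperones, Hsp90b1 (GRP94, the ER member of the HSP90 family, needed to fold Toll-like receptors and integrins) lay the furthest below its Kupffer-like level. T-like cells had 205, 221, 211 and 228 CPM of Hsp90b1 (the 2 exercise libraries and then the 2 sedentary ones), against 962, 1230, 1250 and 1135 CPM in Kupffer-like cells of the same libraries. No T-like library came near the lowest Kupffer-like one, and the log2 difference was -2.35 (SE 0.115, adjusted p = 8.6e-29). NK or ILC-like (-2.37), cDC2-like (-2.25) and B-like cells (-2.07) were as far below. In cycling Kupffer-like cells Hsp90b1 averaged 1296 ± 214 CPM (SD over the 4 libraries), against 1144 ± 131 CPM in Kupffer-like cells. The log2 difference was 0.02 (SE 0.110, adjusted p = 0.908). Hsp90b1 overlaps 1810014B01Rik on the opposite strand and Gm15344 and Gm25745 on its own.

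Hspa5 (BiP, the HSP70-type chaperone that also holds the sensors inactive) was lower than in Kupffer-like cells in 9 of 11 classes and higher in none. Its level was 193 ± 14.2 CPM in B-like and 204 ± 7.3 CPM in T-like cells, against 505 ± 67.1 CPM in Kupffer-like cells, with log2 differences of -1.25 in both (SE 0.141 and 0.135). Other macrophage-like cells averaged 512 ± 130 CPM and differed by 0.05 (SE 0.149, adjusted p = 0.835). The lower call of Hspa5 in cycling Kupffer-like cells (-0.37) was lost in 3 of 8 alternatives. Calr (calreticulin, a calcium-binding chaperone for glycoproteins) was lower in 8 of 11 classes, with the lowest mean of the tested classes again in B-like cells: 258 ± 23.2 CPM, against 594 ± 88.9 CPM in Kupffer-like cells (log2 difference -1.04, SE 0.103). Its difference in cDC1-like cells (-0.22, adjusted p = 0.0471) was lost in 4 of 8 alternatives, and that in classical monocyte-like cells (-0.32) in 3.

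Pdia4 (ERp72, which forms and rearranges disulfide bonds) was lower in 8 of 11 classes, most in cDC2-like cells at 34.3 ± 22.4 CPM, against 91.6 ± 14.3 CPM in Kupffer-like cells (-1.29, SE 0.253, adjusted p = 1.3e-05). The cDC2-like value rests on 41 UMIs in all. The lower calls in LSEC-like and other macrophage-like cells were each lost in 5 of 8 alternatives, and that in pDC-like cells in 2. B-like cells, at 105 ± 20.9 CPM, were the class in which Pdia4 was higher than in Kupffer-like cells (0.36, SE 0.127, adjusted p = 0.0088), a call lost in 4 of 8 alternatives. The 6 plasma cell markers counted summed to 1371 to 2528 CPM in the exercise and 935 to 2437 CPM in the sedentary B-like libraries. In Kupffer-like cells these sums were 34.6 to 43.1 and 59.0 to 166 CPM. Their part in the B-like values of Pdia4, Atf4 and Herpud1 was not tested. In T-like and NK or ILC-like cells Hspa5, Hsp90b1, Calr and Pdia4 were each lower than in Kupffer-like cells.

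Sdf2l1, an ER protein that works with BiP and its DNAJ cofactors, followed another order. It was higher than in Kupffer-like cells in 6 of 11 classes and lower in 3. The higher call in cycling Kupffer-like cells (0.43) was lost in 6 of 8 alternatives. cDC1-like cells had 328, 307, 236 and 409 CPM in the same order of libraries, against 91.7, 148, 110 and 112 CPM in Kupffer-like cells. Every cDC1-like library lay above every Kupffer-like one (log2 difference 1.70, SE 0.128, adjusted p = 4.0e-19). Classical monocyte-like (1.00), unnamed cluster 5 (0.99), other macrophage-like (0.97) and cDC2-like cells (0.88) were also higher. T-like cells, at 47.5 ± 2.7 CPM, were lowest of the 12 tested classes (-1.24, SE 0.153), and the highest mean among these was 6.74 times the lowest.

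Manf, a small ER-resident and secreted protein that binds BiP, was highest in pDC-like cells. These held 427, 394, 459 and 535 CPM in the same order of libraries, against 164, 171, 196 and 207 CPM in Kupffer-like cells. The difference was 1.16 on the log2 scale (SE 0.0948, adjusted p = 1.7e-17), and the lowest pDC-like library also lay above each library of the next tested class, cDC1-like cells, at 224 ± 50.9 CPM. All other neighbours in the order of Manf levels overlapped. On chromosome 9 (106838312 to 106891979, GRCm38), Manf overlaps Rbm15b on its own strand and Dcaf1 on the other. Reads could be shared with Rbm15b and, as use of strand in the counting was not given in the sources used here, with Dcaf1.

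Herpud1, an ER membrane protein that organises the complex that sends misfolded proteins to the proteasome, was higher in 5 of 11 classes. The pDC-like level was 249 ± 56.1 CPM (log2 difference 1.16, SE 0.147, adjusted p = 2.1e-10) and the cDC1-like level 176 ± 60.3 CPM (1.09, SE 0.139, adjusted p = 2.9e-10), against 100 ± 26.7 CPM in Kupffer-like cells. Libraries of pDC-like and cDC1-like cells overlapped. The higher call in B-like cells (0.39) was lost in 4 of 8 alternatives. Among the 6 classes with fewer cells, which were not tested, migratory dendritic cell-like cells had the highest mean, 291 CPM over 61 cells. An antisense gene, Gm15890, overlaps Herpud1.

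**Figure D2:**
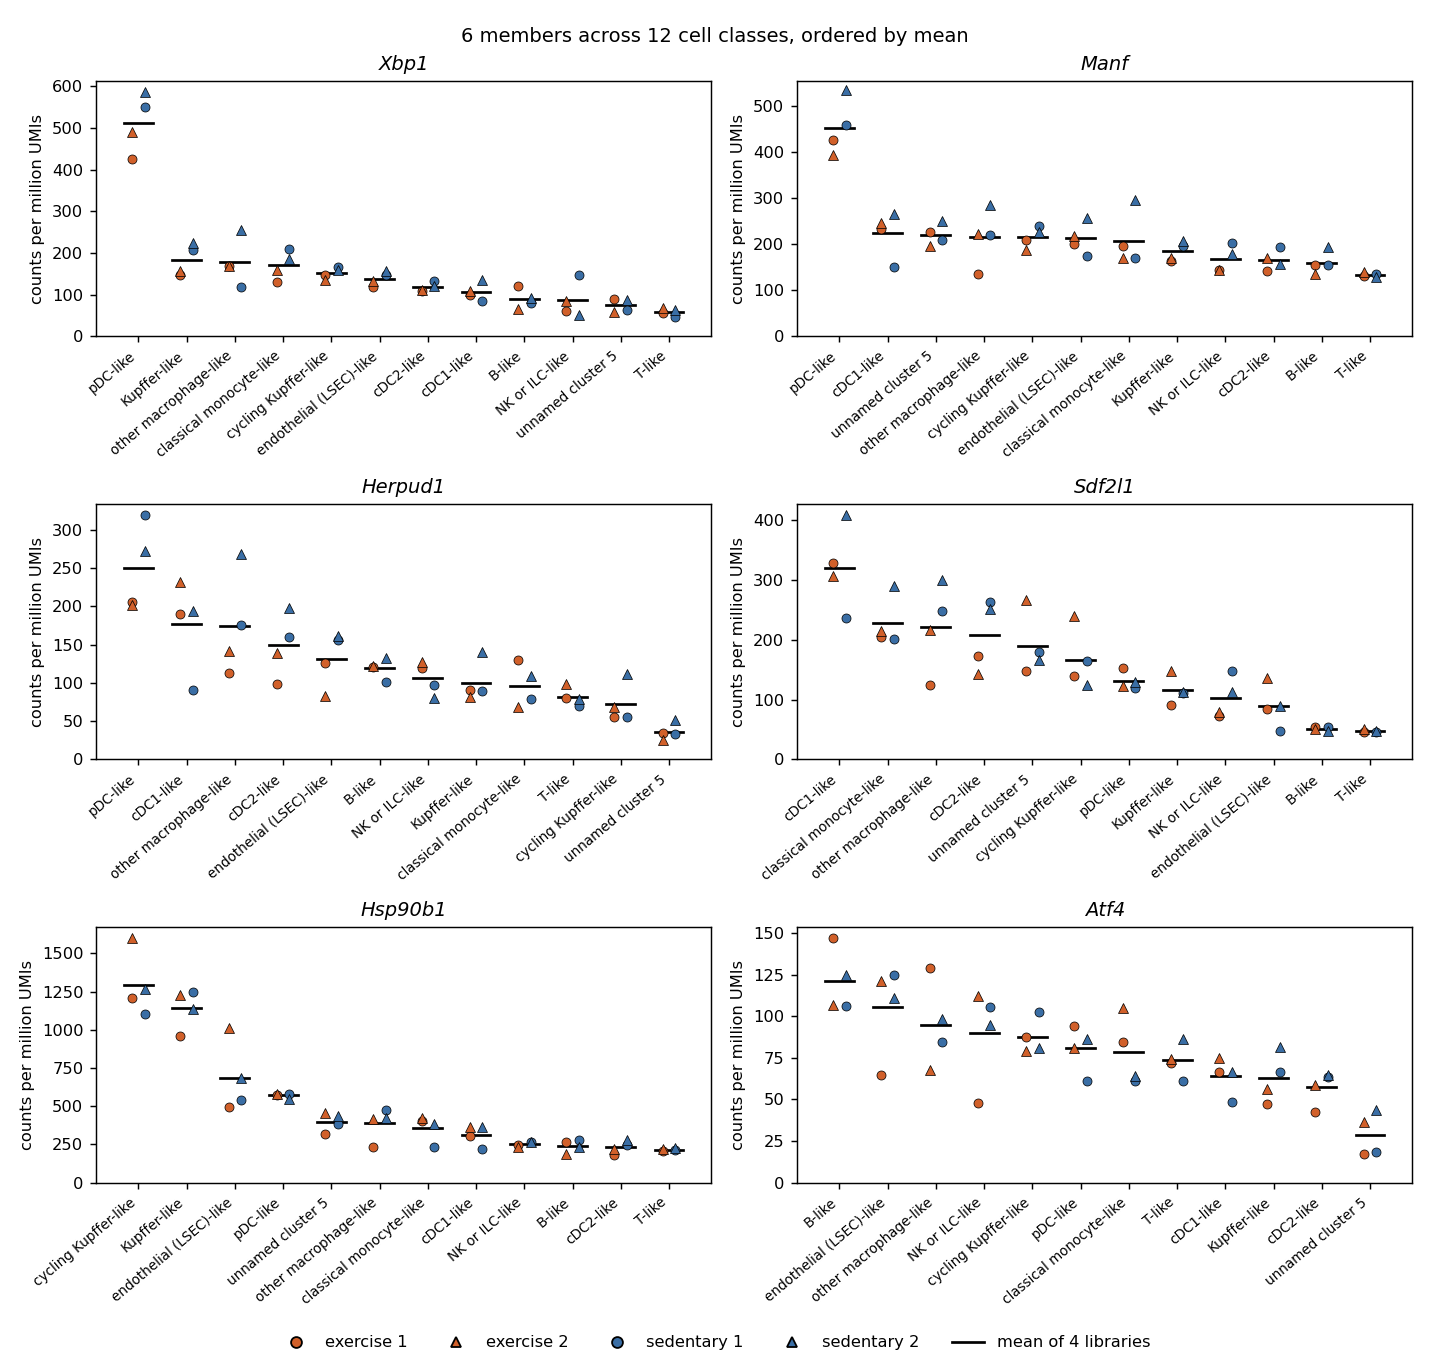
CPM of 6 members in each library (orange, exercise; blue, sedentary; circles and triangles, replicates 1 and 2) and their mean over 4 libraries (bar), with the 12 classes ordered by mean in each panel. pDC-like cells stand apart for Xbp1 (425 to 586 CPM) and Manf (394 to 535 CPM), whereas Sdf2l1 and Atf4 fall off gradually with overlapping libraries. Herpud1 does so as well, except that its lowest class, unnamed cluster 5, lies apart from the next.

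Of the transcription factors, Xbp1, which drives genes of folding and secretion and is known for its role in plasma cells, separated pDC-like cells the most. Its levels there were 425, 492, 551 and 586 CPM in the same order of libraries, against 147, 156, 206 and 223 CPM in Kupffer-like cells. All 4 pDC-like libraries lay above those of the other 11 tested classes (log2 difference 1.38, SE 0.101, adjusted p = 1.1e-19). Kupffer-like, other macrophage-like and classical monocyte-like cells, the next 3 tested classes in order, overlapped at means of 183, 178 and 171 CPM. Of the 12 tested classes T-like cells were lowest at 58.7 ± 9.3 CPM, and the highest mean among these was 8.75 times that. The 6 plasma cell markers listed in the files summed to 56.1 to 56.9 CPM in the exercise and 52.1 to 94.6 CPM in the sedentary pDC-like libraries, against 34.6 to 43.1 and 59.0 to 166 CPM in Kupffer-like cells.

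Atf4, the factor of the PERK branch, had its highest mean among the 12 tested classes in B-like cells, 121 ± 19.2 CPM, against 63.1 ± 14.8 CPM in Kupffer-like cells (log2 difference 1.08, SE 0.125, adjusted p = 8.3e-12). It was also higher in other macrophage-like (0.57) and LSEC-like cells (0.48), and its difference in T-like cells (0.28, adjusted p = 0.0263) was lost in 6 of 8 alternatives. Every neighbouring pair in its order overlapped. Ddit3, the late stress factor CHOP, was scarce: its 12 class means ran from 14.1 to 60.3 CPM. It was lower than in Kupffer-like cells in cDC1-like (-1.16, SE 0.250), pDC-like (-1.16, SE 0.270) and classical monocyte-like cells (-1.17, SE 0.337), where 47, 39 and 23 UMIs were counted in all. The higher value in other macrophage-like cells (0.74, adjusted p = 0.0246) was lost in 6 of 8 alternatives. Ddit3 overlaps Mars on the opposite strand.

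Other genes of the same compartment were counted beside the members. In pDC-like cells 16 of 26 genes for translocation into the ER, signal peptidase and glycosylation were higher than in Kupffer-like cells and 3 lower, with a median difference of 0.63 against -0.01 over all genes. The lists of other ER chaperones (8 higher, 5 lower of 19) and of ER-associated degradation (3 higher, 6 lower of 17) had medians of 0.06 and -0.06 there. Targets of PERK and ATF4 had medians of -0.73 in pDC-like and -0.85 in cDC1-like cells, with 5 of 15 genes higher and 8 lower in pDC-like cells (32.8% and 33.1% of all genes) and 4 higher and 9 lower in cDC1-like cells (34.7% and 34.3%). In T-like cells 5 of 19 other chaperones were higher and 10 lower, and 4 of 17 degradation genes were higher and 9 lower, beside 40% and 38.4% of all genes.

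Across all 18 classes the member profiles on mean log2 CPM were compared pair by pair. Pearson's r was 0.83 for Hspa5 and Hsp90b1, 0.79 for Pdia4 and Hsp90b1, 0.75 for Calr and Hsp90b1, 0.75 for Manf and Calr, 0.71 for Xbp1 and Manf and 0.70 for Hspa5 and Calr, the 6 highest of the pairs. The remaining chaperone pairs were lower, with 0.58 for Pdia4 and Calr and 0.57 for Hspa5 and Pdia4. Manf and Ddit3 were the most unlike (r = -0.40). The genes outside the lists closest to the mean profile of the members, of 9639 compared, were Rrbp1 (0.86), a ribosome-binding protein of the rough ER, Hdlbp (0.85), Bsg (0.82), Pigt (0.81), a subunit of the enzyme that attaches glycolipid anchors in the ER, and Wasf2 (0.80). These correlations describe 18 points that share libraries and differ in depth.

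The Kupffer-like class joined 2 clusters that differed in these genes, which the clustering had not used. Cells of cluster 0 had a median of 4001.5 UMIs and those of cluster 1 had 1773. The differences between the clusters were not tested. Cluster 1, with the higher mitochondrial share, had a mean of 1752 CPM of Hsp90b1, 270 CPM of Xbp1, 147 CPM of Herpud1 and 123 CPM of Pdia4. Cluster 0 had 894, 147, 81.0 and 79.6 CPM of the same genes. Manf (135 CPM in cluster 1 and 207 CPM in cluster 0) and Sdf2l1 (78.5 and 131 CPM) ran the other way. In each library the Hsp90b1 level of cluster 1 was above that of cluster 0, and cluster 1 made up 571 of 1163 and 660 of 1669 Kupffer-like cells in the exercise libraries and 733 of 1230 and 544 of 1232 in the sedentary ones.

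Between exercise and sedentary Kupffer-like cells no member passed the test. Of 9792 genes tested with edgeR's quasi-likelihood test, 39 passed (0.398%), 1 higher and 38 lower, and 0 of the 10 members were among them, with 3 at an unadjusted p under 0.05, beside 6.0% of all genes, and 0 called by DESeq2, also with 3 at an unadjusted p under 0.05. Libraries of the groups did not overlap, with exercise lower, for 4 of 10 members, beside 20% of all genes tested. With exercise higher this was so for 0 members, beside 15.8%. The log2 change was negative for 9 of 10 members, with a median of -0.25 against 0.00 for all genes. Without exercise replicate 1 it was negative for 5 members (median -0.09), and without sedentary replicate 2 for 7 (median -0.09). It was negative for 10 without exercise replicate 2 (median -0.37) and for 9 without sedentary replicate 1 (median -0.32).

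Xbp1 had 147 and 156 CPM in the exercise libraries, against 206 and 223 CPM in the sedentary libraries. The groups did not overlap, and the change was -0.49 on the log2 scale (SE 0.114, unadjusted p = 0.00247, adjusted p = 0.232). With no filter on low counts the adjusted p was 0.0307. Atf4 had 47.3 and 56.5 CPM in the exercise libraries, against 66.5 and 81.9 CPM in the sedentary ones (-0.49, SE 0.161, adjusted p = 0.619), and its change was -0.30 without sedentary replicate 2. Hspa5 had 444 and 450 CPM, against 570 and 556 CPM in sedentary libraries (-0.31, SE 0.0974, adjusted p = 0.582). Manf had 164 and 171 CPM, against 196 and 207 CPM (-0.25, SE 0.109, adjusted p = 0.830). In these 4 members both exercise libraries lay below both sedentary ones. The gap between the groups was wider than the spread within either group for Xbp1, Hspa5 and Manf, but not for Atf4.

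**Figure D3:**
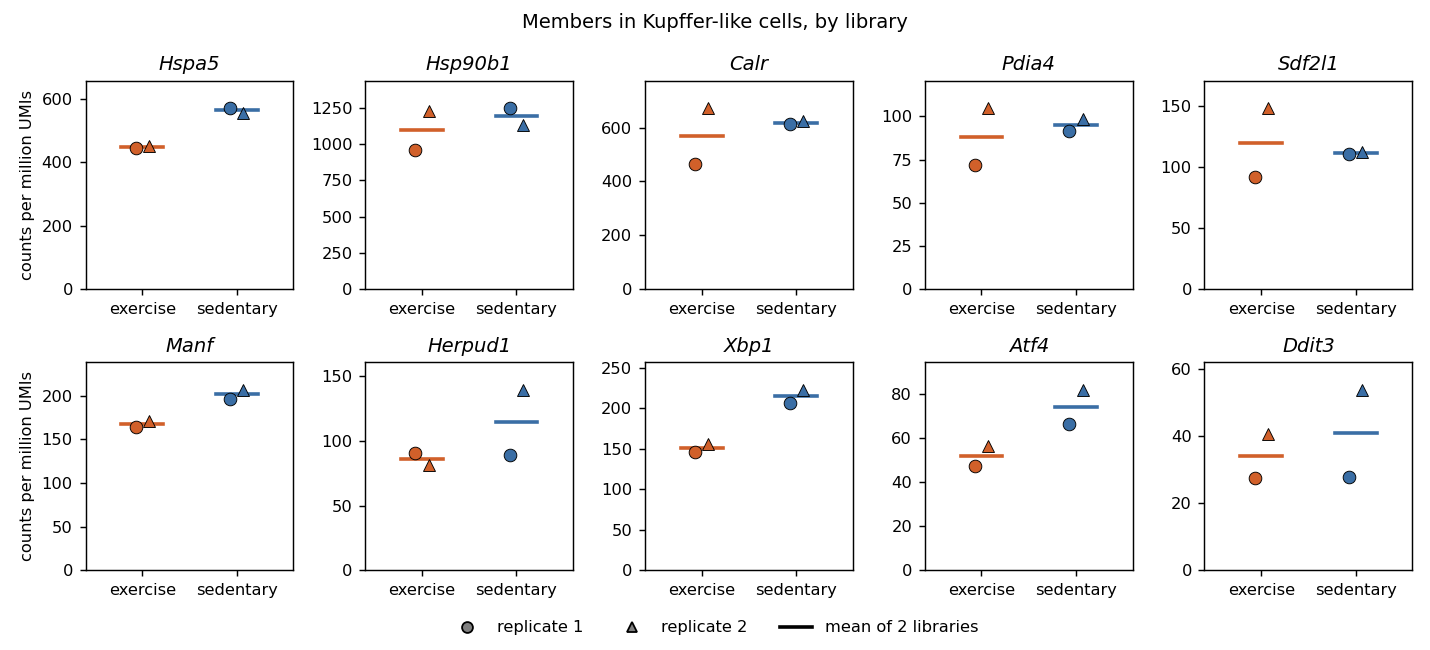
CPM of the 10 members in Kupffer-like cells of each library, with the mean of each group as a bar and axes from 0. Both exercise libraries lie below both sedentary ones for Hspa5, Manf, Xbp1 and Atf4, and the groups overlap for the other 6.

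The other 6 members overlapped between the groups. Herpud1 had 90.9 and 81.2 CPM in the exercise libraries, against 89.1 and 140 CPM in the sedentary ones (-0.41, SE 0.206, adjusted p = 0.860), so that sedentary replicate 2 alone was high, and without it the change was -0.0013. Ddit3 had 27.4 and 40.6 CPM, against 27.9 and 53.9 CPM, with replicate 2 the higher in both groups. For Calr (466 and 672 CPM in exercise, 613 and 623 CPM in sedentary libraries), Hsp90b1 (962 and 1230 CPM, against 1250 and 1135 CPM) and Pdia4 (71.8 and 105 CPM, against 91.3 and 98.5 CPM), exercise replicate 1 was the lowest library, and the changes were -0.10, -0.10 and -0.08. Sdf2l1 had 91.7 and 148 CPM in exercise and 110 and 112 CPM in sedentary libraries (0.14).

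Hepatocyte transcripts moved with the groups, as given above. In the Kupffer-like cells without any UMI of the hepatocyte markers (726 and 1165 cells in the exercise, 109 and 201 in the sedentary libraries) the change of Hspa5 was -0.41, that of Xbp1 -0.68 and that of Manf 0.12. This subset keeps a larger share of the cells in the exercise libraries (of 1163 and 1669) than in the sedentary ones (of 1230 and 1232). The adjusted p was 0.382 for Hspa5 and 0.203 for Xbp1. Immediate early and heat shock genes summed to 7048 to 7195 CPM in the exercise and 8199 to 11479 CPM in the sedentary libraries, with all 28 detected. Plasma cell markers summed to 34.6 to 43.1 CPM in the exercise and 59.0 to 166 CPM in the sedentary libraries, mostly Jchain in sedentary replicate 2 (143 CPM). Mitochondrially encoded mRNAs had negative changes for 13 of 13 genes (median -0.36, 0 called) and summed to 61418 to 66431 CPM in the exercise and 72521 to 84415 CPM in the sedentary libraries. Erythroid markers summed to 101 to 312 CPM in the exercise and 932 to 1254 CPM in the sedentary libraries, with 2 of 4 tested called lower. The part of these in the members' changes was not tested.

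Wider ER lists in Kupffer-like cells had no gene past edgeR's test. Of the sensors and their proteases, 5 of 8 genes had negative changes (median -0.12), with Mbtps1, the protease that cuts ATF6, at 20.4 and 22.4 CPM in exercise and 27.9 and 30.7 CPM in sedentary libraries (-0.43, adjusted p = 0.742), Creb3l2 at -0.43, Atf6b at -0.20 and Eif2ak3 (PERK) at -0.27. Of 20 other chaperones 14 were negative (median -0.09), among them Txndc11 (-0.53), Dnajb9 (-0.31), Creld2 (-0.33) and Dnajc10 (-0.27). Translocation and glycosylation genes were at a median of -0.04 (17 of 26 negative), with Sec61a1 at -0.25, Spcs3 at -0.25, Ssr1 at -0.21 and Sec63 at -0.18. Degradation genes were at -0.12 (13 of 18 tested negative), with Nploc4 at -0.47, Ube2j1 at -0.31 and Syvn1 at -0.33, whereas Os9, a lectin that recognises misfolded glycoproteins, was at 0.28. The smallest adjusted p of these 4 lists was 0.561, for Txndc11.

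Among targets of PERK and ATF4 the changes were wider. Of 25 genes, 15 were tested, 9 with negative changes, at a median of -0.14. Ddit4, a stress-induced inhibitor of mTOR signalling, had 3.14 and 3.85 CPM in the exercise libraries, against 19.1 and 73.3 CPM in the sedentary libraries (-3.71, SE 0.649, adjusted p = 0.0738). Ppp1r15a (GADD34, which reverses the PERK signal) had 52.8 and 54.4 CPM, against 81.6 and 95.0 CPM (-0.70, SE 0.133, adjusted p = 0.103). Atf3, which is also in the list of immediate early and heat shock genes, had 18.5 and 17.1 CPM, against 27.6 and 47.6 CPM (-1.08, adjusted p = 0.253). Slc3a2 was at -0.18. The first 3 did not overlap between the groups, beside 20% of all genes tested with exercise lower, and none passed. These 3 had the smallest p of their list, so their separation is partly set by how they were picked. Among the immediate early and heat shock genes, 23 of 27 tested were negative (median -0.48), and Egr1 fell, with 307 and 297 CPM in the exercise and 496 and 567 CPM in the sedentary libraries (-0.80, SE 0.116, adjusted p = 0.0306). Ier5 (-0.52), Fosb (-0.57) and Junb (-0.59) did not pass.

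**Figure D4:**
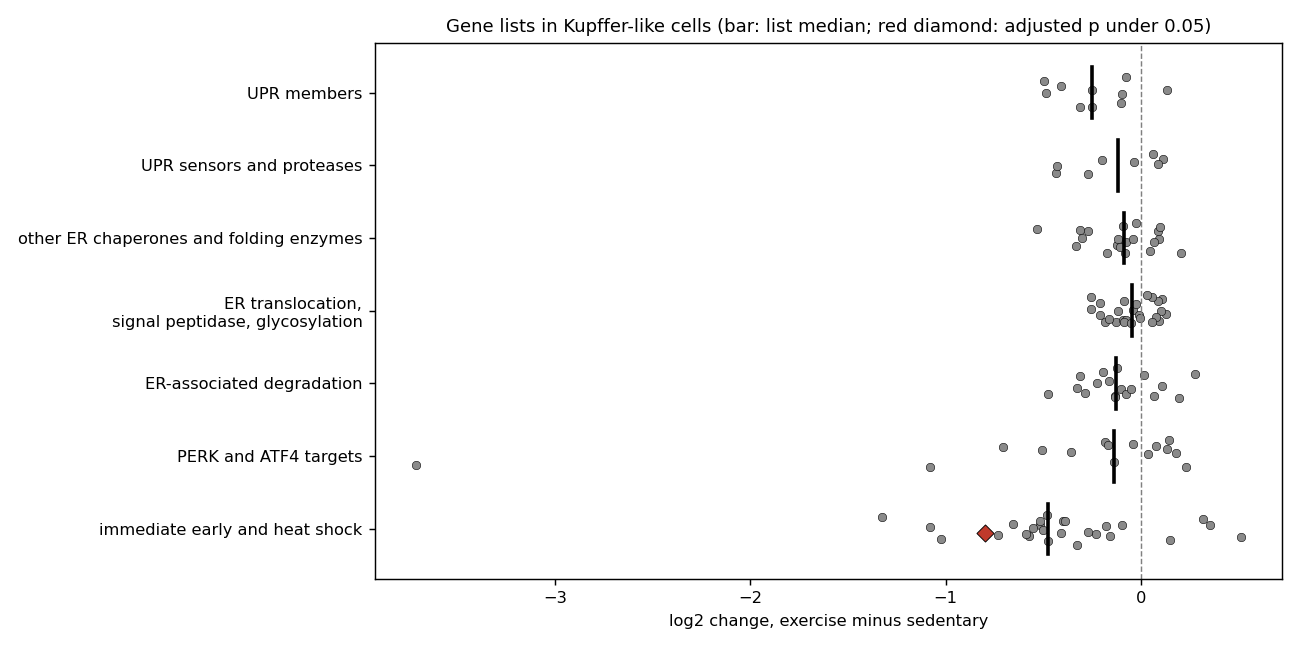
Log2 change, exercise minus sedentary, of single genes (points) in Kupffer-like cells for the members and 6 wider lists, with each list's median as a bar. The ER lists have medians between -0.25 and -0.04, the immediate early and heat shock list has -0.48, and the red diamond is Egr1.

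In the other 11 classes no member passed edgeR's test either, in any of 106 values tested, while 4 values fell under the filter on low counts. Unadjusted, 10 of the 106 values had p under 0.05, all of them negative, beside 5.05% of the values of all genes in these classes, and DESeq2 called 0. The share of all genes called was 0.241% in T-like, 0% in B-like, 0.0617% in LSEC-like, 0.75% in unnamed cluster 5, 0% in pDC-like, 0.176% in cycling Kupffer-like, 0.0581% in NK or ILC-like, 0% in cDC1-like, 0% in classical monocyte-like, 0.381% in other macrophage-like and 0% in cDC2-like cells. In T-like cells the 10 changes ran from -0.10 to 0.22, with 5 negative and a median of 0.01. In B-like cells they ran from -0.43 (Ddit3) to 0.11 (Atf4), also with 5 negative.

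**Figure D5:**
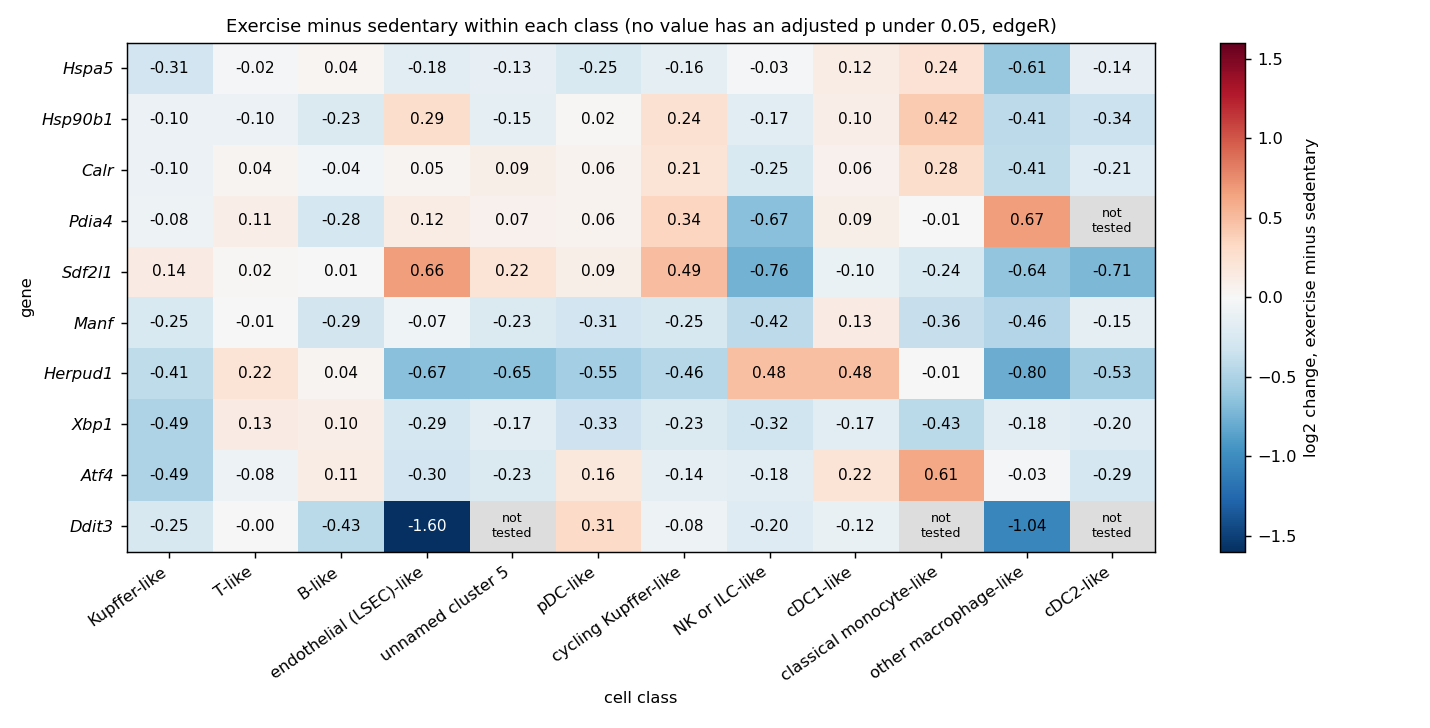
Log2 change, exercise minus sedentary, of each member (rows) in each of the 12 classes (columns), with blue for lower in exercise. No value has an adjusted p under 0.05, and the changes run from -0.10 to 0.22 in T-like and from -0.43 to 0.11 in B-like cells.

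The smallest p of any member was that of Ddit3 in LSEC-like cells. It had 11.2 and 22.4 CPM there in the exercise libraries (5 and 17 UMIs), against 52.5 and 55.5 CPM in the sedentary libraries (24 and 32 UMIs), with a change of -1.60 (SE 0.355, unadjusted p = 0.000713, adjusted p = 0.193). The 2 groups did not overlap. The call was made when exercise replicate 2 was left out (-2.28, adjusted p = 0.0469), when sedentary replicate 1 was (-1.65, adjusted p = 0.0152) and with no filter on low counts (adjusted p = 0.00489). Hepatocyte markers summed to 107 to 179 CPM in exercise and 517 to 1434 CPM in sedentary LSEC-like libraries, all 10 detected, and their part in this value was not tested.

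In pDC-like cells, the tested class with the highest mean of Herpud1, its values were 206 and 202 CPM in the exercise libraries, against 318 and 272 CPM in the sedentary libraries (-0.55, SE 0.156, adjusted p = 0.778). Their Xbp1 was at -0.33 and Manf at -0.31, both with separated libraries. Libraries did not overlap, with exercise lower, for 4 of 10 members in pDC-like cells, beside 15.6% of genes, and with exercise higher for 0, beside 19.1%. In other macrophage-like cells this held for 6 of 10 members, beside 19.5% (0 higher, beside 17.3%). The smallest p there was that of Hspa5, at 410 and 403 CPM in exercise, against 560 and 675 CPM in sedentary libraries (-0.61, SE 0.188, adjusted p = 0.421). In that class the immediate early and heat shock genes, 27 of 28 detected with Egr3 at 0, summed to 7686 and 8815 CPM in exercise and 11115 and 17261 CPM in sedentary libraries. The 10 hepatocyte markers, all detected, summed to 50.6 and 76.1 CPM in exercise and 860 and 380 CPM in sedentary libraries, and the part of either was not tested. In cDC2-like cells separation with exercise lower held for 6 members of the 8 tested, beside 17.2% (0 higher, beside 16.1%), with the smallest p for Sdf2l1 at 174 and 142 CPM, against 263 and 251 CPM (-0.71, SE 0.222, adjusted p = 0.661). Sdf2l1 in NK or ILC-like cells, with 71.9 and 79.7 CPM in exercise, against 147 and 113 CPM in sedentary libraries, was at -0.76 (adjusted p = 0.797).

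The remaining 8 classes had between 0 and 4 members separated in a given direction. Exercise was lower for 4 and higher for 1 in NK or ILC-like cells (beside 15.6% and 18.4% of genes), lower for 3 and higher for 0 in LSEC-like cells (14.4% and 19.1%) and in cycling Kupffer-like cells (15.3% and 16%), and lower for 2 and higher for 0 in B-like cells (15.3% and 19.6%). T-like cells had 0 lower and 3 higher (13.4% and 24.6%), cDC1-like cells 0 and 1 (11% and 22%), classical monocyte-like cells 1 and 3 of 9 tested (15.6% and 15.1%), and unnamed cluster 5 had 0 and 0 of 9 tested (11.2% and 24.2%). In T-like cells more of all genes were separated on the higher than on the lower side too.

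Whether the exercise change of a member differed between lymphoid and Kupffer-like cells was tested by an interaction term. No member passed, for T-like minus Kupffer-like cells (11 of 9387 genes called, 0.117%) or for B-like minus Kupffer-like cells (16 genes, 0.17%), with 4 and 3 members at an unadjusted p under 0.05, beside 6.9% and 6.56% of all genes. The largest differences were those of Herpud1 (0.61, SE 0.190, adjusted p = 0.264) and Xbp1 (0.61, SE 0.207, adjusted p = 0.369) in T-like cells and of Atf4 (0.55, SE 0.207, adjusted p = 0.660) and Xbp1 (0.55, SE 0.222, adjusted p = 0.685) in B-like cells. Without sedentary replicate 1, Herpud1 passed for T-like minus Kupffer-like cells (0.86, adjusted p = 0.0373).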

How the data were processed

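The deposited values are UMI counts, whole numbers per gene and barcode. The submitters' processing notes name Cell Ranger (version not given in the sources used here), Seurat 3.1 and GRCm38. Per the labels' text, alignment was to a pre-mRNA genome, so intronic reads may be counted, and sorted cells and nuclei are both mentioned. The lowest total per barcode was 931 to 1126 UMIs.

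Cell filters were a minimum of 500 UMIs and 200 genes and a mitochondrial share of up to 20%. After removal of 460 scored doublets, 14560 cells were clustered (Leiden, resolution 1, 2000 variable genes, 30 components, leidenalg 0.10.2) without 135 listed genes, the members included, and without 193 hepatocyte and erythroid genes. Marker lists named the classes. The names, the joining of clusters and the second exclusion were decided after seeing the data.

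Sums of counts per class and library entered edgeR 4.0.16 (TMM, filterByExpr, quasi-likelihood F-test, Benjamini-Hochberg over all genes tested), with library as a term between classes and no covariate between groups. DESeq2 1.42.0 was an alternative. The SE is the change divided by the root of F. The tests were checked on simulated data. CPM in the text come from raw sums. Named genes are all members, up to 4 genes per wider list by smallest p and the 5 genes with the most similar profile. The members and lists were chosen with earlier results of these data known. Calr has a processed pseudogene, Calr-ps, that could take reads.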

Additional observations from a re-analysis of the deposited data

How the results depend on the processing

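Of the 77 class differences that passed, all kept their sign in 8 alternatives, and 58 passed in each. The calls of Atf4 in T-like, Ddit3 in other macrophage-like and Sdf2l1 in cycling Kupffer-like cells were each lost in 6. Between exercise and sedentary Kupffer-like cells the number of genes called, 39 in the main test, was 200 with the replicate block, 73 with DESeq2, 228 with no filter on low counts, 0 in cells without hepatocyte UMIs and 28 to 88 when a library was left out, the cause of which was not tested. Members called were 2 with the replicate block (Xbp1, adjusted p = 0.00369, and Atf4, adjusted p = 0.0197, in edgeR) and 1 with no filter (Xbp1). In the other classes together 1 member was called with the replicate block, 1 with no filter (Ddit3 in LSEC-like cells, both times) and 0 to 1 leaving out a library (Ddit3, or Sdf2l1 in LSEC-like cells at 1.26). The interaction gave 0 to 1. The block changed no other call of a member. The replicate numbers give 2 pairs and the labels tie them to no shared day or animal; deviations of samples with the same number correlated by 0.194, 0.140 and 0.127 over genes in Kupffer-like, T-like and B-like cells. Signs of some values that had not passed turned. In Kupffer-like cells without hepatocyte UMIs Manf was 0.12 and Pdia4 0.13, with thinned cells Sdf2l1 was -0.0087, and in cluster 1 alone, chosen after seeing the data, Sdf2l1 was -0.28, Pdia4 0.037 and Hsp90b1 0.047. In T-like cells Ddit3 was 0.0056 with DESeq2, 0.0022 with RLE size factors, 0.021 with no filter and 0.0097 with a stricter cell filter, Hspa5 was 0.0010 and Manf 0.014 with no filter, and Sdf2l1 was -0.0061 with doublets kept. In B-like cells Sdf2l1 was -0.0099 with no filter and -0.0090 with doublets kept. Leaving out a library gave, in Kupffer-like cells -0.66 to 0.36 for Ddit3, -0.40 to 0.18 for Pdia4, -0.41 to 0.16 for Calr, -0.31 to 0.089 for Hsp90b1 and -0.28 to 0.45 for Sdf2l1, in T-like cells -0.070 to 0.029 for Hspa5, -0.071 to 0.048 for Manf, -0.035 to 0.028 for Ddit3, -0.060 to 0.36 for Xbp1, -0.090 to 0.11 for Sdf2l1, -0.014 to 0.096 for Calr, -0.30 to 0.20 for Atf4 and -0.12 to 0.36 for Pdia4, and in B-like cells -0.37 to 0.45 for Xbp1, -0.10 to 0.29 for Atf4, -0.075 to 0.10 for Sdf2l1, -0.090 to 0.15 for Hspa5, -0.14 to 0.052 for Calr and -0.19 to 0.26 for Herpud1. Fold changes at this depth rest on 2 libraries a group, and members with under 50 UMIs in a class have wide counting error.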
